A study of Drosophila melanogaster with 7 samples.

Results

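Long stretches of chromatin marked by H3K27me3, the trimethylation of histone H3 at lysine 27, were examined in wing imaginal discs of Drosophila melanogaster. Chromatin came from larvae of the third instar and was analysed by chromatin immunoprecipitation and sequencing (ChIP-seq), with 6 immunoprecipitated libraries, 1 per target, and an input library that is not used here. H3K27me3 peaks separated by gaps of up to 5000 bp were joined, and the joined domains longer than 20000 bp and shorter than 190000 bp were kept. A domain touching 3R from 2450000 to 2850000 or 3R from 12450000 to 12820000 was left out. Of the 3800 domains of any length, 389 were over 20 kb, 5 of these were left out for their length and 4 for touching the windows on 3R, and 380 long domains remained.

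The discs are the larval epithelia that give rise to the adult wing and notum, and the labels name no mutant line, transgene or treatment for any library. The other targets were H3K4me3, a mark of active promoters, H3K36me3, a mark of transcribed gene bodies, and RNA polymerase II phosphorylated on its C-terminal repeat at serine 5 (Ser5P), typical of promoters, or at serine 2 (Ser2P), typical of elongation. The sixth target was ASH2, a trithorax group protein of the complexes that methylate H3 at lysine 4. Its label carries a catalogue number sold against the HA epitope tag and names no tagged line, so the identity of that target rests on the label. A disc mixes cells of different fates, so marks on the same chromosome and marks from different cells cannot be told apart.

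As background, H3K27me3 is written by the PRC2 complex, which holds the methyltransferase E(z), and is bound by the chromodomain protein Polycomb of the PRC1 complex. In flies it spreads over long stretches from DNA elements that recruit Polycomb proteins, and such domains typically cover genes of developmental regulators that are kept silent in the cells concerned. Trithorax group proteins counteract this silencing. The files hold positions and no gene names, and no annotation of their build (dm3) was used here, so no gene is named.

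A peak list says where a caller found enrichment and gives no height, so sequencing depth cannot be read from it and a place without a peak is not shown to lack the mark. The lists held 3732 (Ser5P) to 31582 (ASH2) peaks on the arms 2L, 2R, 3L, 3R and X. The H3K27me3 list had 152 peaks per Mb on 2L, 150 on 2R, 165 on 3L, 231 on 3R and 243 on X. With 1 library per target no test across samples could be made, and the values below describe these lists. Intervals are exact 95% intervals (binomial for shares, Poisson for densities) that cover counting error only, and domains of 1 library are not replicates.

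The long domains were large but few. They had a median length of 37413 bp, with quartiles of 26646 and 59484 bp, and ran up to 179184 bp. Together they spanned 18.8 Mb, which is 15.8% of the 119 Mb spanned by the lists, although they were 380 of 3800 domains. The 826 domains of 5 to 20 kb spanned 8.27 Mb and the 2585 domains of up to 5 kb spanned 2.92 Mb. The members nearest above the lower limit were 20071 bp (3L from 18204300 to 18224370) and 20115 bp (X from 834267 to 854381) long. The domains nearest below it measured 19966 bp (3R from 11976156 to 11996121) and 19911 bp (X from 15383646 to 15403556). At the upper limit the longest member had 179184 bp and the shortest domain left out for its length 190949 bp.

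H3K27me3 cover inside the domains, the share of a domain's length under H3K27me3 peaks, was broadly spread and formed no single class. The lists that chose the domains also set this value, so it is a description. The median was 32.6%, with quartiles of 18.3 and 57.0% and a range of 5.85 to 91.5%. It depended on the joining gap: domains chosen by the same lengths had a median of 77.6% with gaps of up to 1000 bp (138 domains) and 16.0% with gaps of up to 10000 bp (530 domains). Cover lay between 10 and 20% in 97 domains, between 30 and 40% in 51, and at 80 to 90% in 20. A member held a median of 23 H3K27me3 peaks (5 to 160), and its largest internal gap had a median of 3887 bp against the 5000 bp that joining allowed. Cover followed the width of the peaks more than the length of the domain: across the 380 domains Spearman's rho with the median peak width was 0.93, and rho with length was 0.43. Both measures share the H3K27me3 list with the rule.

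At the dense end lay 2R from 20685470 to 20756975, where 26 peaks, the widest of 9118 bp, covered 91.5% of 71506 bp. Inside it were 14 ASH2 peaks, 2 of H3K4me3, 1 of Ser5P, 8 of Ser2P and 0 of H3K36me3. Next came 2L from 6527839 to 6557087 with a cover of 91.2% and 2L from 9577105 to 9612667 with 89.7%. Each of these also had 1 H3K4me3 and 1 Ser5P peak, so nearly continuous H3K27me3 and an active peak were listed in the same domain. At the sparse end, 3R from 1724914 to 1751425 was a chain of 10 narrow peaks (median 119.5 bp) over 26512 bp, with a cover of 5.85% and no peak of any other list. Another chain, X from 18282068 to 18305133, had 12 peaks, a cover of 6.03% and 7 ASH2 peaks. The least covered member on chromosome 2, 2R from 2670671 to 2691156, had 9 peaks, a cover of 6.61%, 3 ASH2 peaks and 1 Ser5P peak.

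**Figure D1:**
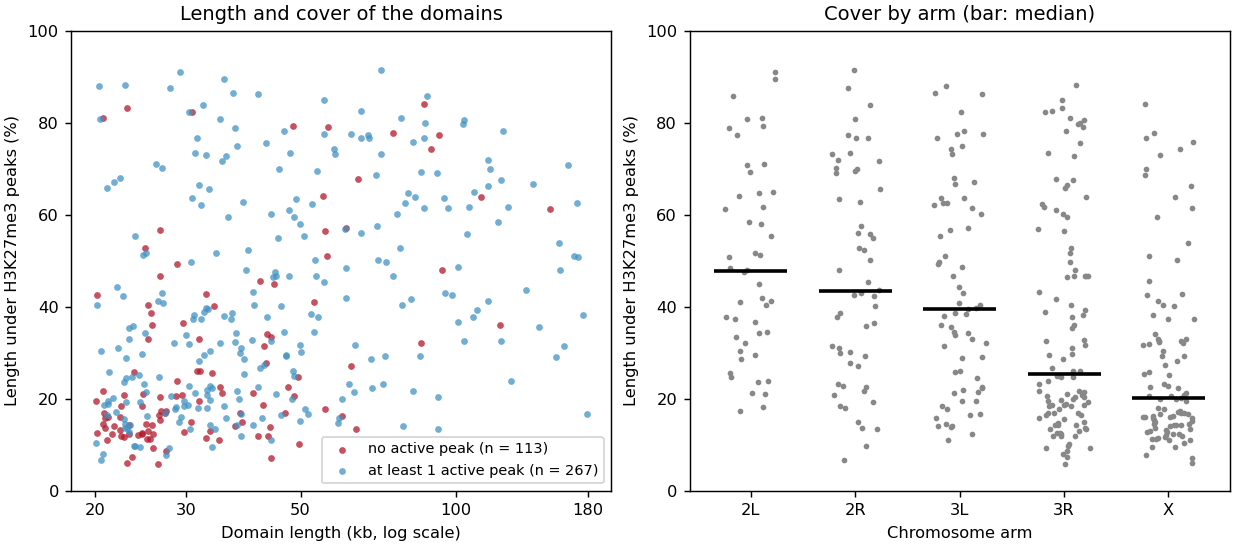
Left, each point is 1 of the 380 domains, with its length (kb, log scale) on the x axis and the share of its length under H3K27me3 peaks (%) on the y axis; red points are the 113 domains with no H3K4me3, Ser5P, Ser2P or H3K36me3 peak and blue points the 267 with at least 1. Right, the same cover by chromosome arm, with a bar at the median, which is 47.8% on 2L and 20.2% on X.

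The arms differed in how many long domains they carried and how densely these were covered. X had 44.2 long domains per 10 Mb and 3R had 38.7, against 28.1 on 3L, 26.5 on 2R and 20.9 on 2L. Median cover ran in the opposite order, at 20.2% on X and 25.5% on 3R, against 39.6% on 3L, 43.4% on 2R and 47.8% on 2L. Of the 111 domains with a cover under 20%, 48 lay on X and 40 on 3R. The H3K27me3 list itself was denser on X and 3R. When each arm was limited to its widest H3K27me3 entries at an equal number per Mb (a setting added after seeing the data), the arms had 20.9 (2L), 26.5 (2R), 26.1 (3L), 22.6 (3R) and 23.2 (X) long domains per 10 Mb and median covers of 47.8, 43.4, 41.7, 49.5 and 39.5% in the same order. The excess of long domains on X and 3R was thus not found with equal numbers of entries. The setting cut each arm to 150 entries per Mb by dropping the narrowest, so it removed most on X and 3R and none on 2R. Dropping narrow entries breaks chains of peaks, so the setting can by itself give fewer domains and a higher cover on X and 3R. How much of the change comes from this was not tested. Why the arms differ was not tested.

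Long domains were unevenly spaced. Neighbours on an arm were separated by a median of 134838 bp, with quartiles of 33775 and 348006 bp. Of the 375 gaps between neighbours, 48 (12.8%) were under 10 kb, where joining over a larger gap would have merged the pair, and 13 exceeded 1 Mb. Domains left out by the rule count as part of a gap, so the spacing partly reflects the rule. The longest gap on 2L (1274414 bp) holds the domain of 190949 bp left out for its length. Each of the windows on 3R lies in a gap of over 1 Mb. The longest gap between neighbours ran on 2R from 8935817 to 10322581 (1386765 bp). Stretches between an arm's end and its outermost member are not among these gaps. The first member on 2R started only at 1595235, so the stretch before it was longer. A domain of any length lay within 10 kb of 289 of the 380 members (76.1%), against 72.3% of the domains of 5 to 20 kb and 62.8% of all domains. The median gap was 118456 bp on X and 100534 bp on 3R, against 174480 bp on 2R, 199452 bp on 3L and 260691 bp on 2L.

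Peaks of active chromatin were rarer in the long domains than outside domains, and the size of the deficit differed between marks. H3K36me3 was the sparsest, at 6.69 peaks per Mb in long domains (5.57 to 7.97), 16.3 in domains of 5 to 20 kb (13.7 to 19.3) and 61.1 outside all domains (59.5 to 62.8). The ratio of long domains to outside was 0.109. For H3K4me3 the densities were 16.2 peaks per Mb in long domains (14.4 to 18.1), 22.9 in those of 5 to 20 kb (19.7 to 26.4) and 59.4 outside (57.8 to 61.0), a ratio of 0.273. The polymerase forms were less depleted. Ser2P had 21.6 peaks per Mb in long domains (19.6 to 23.8) against 46.1 outside (44.7 to 47.6), a ratio of 0.469. Ser5P had 19.8 (17.8 to 21.9) against 34.6 (33.4 to 35.8), a ratio of 0.571. In domains of 5 to 20 kb the densities were 22.3 for Ser2P and 22.4 for Ser5P, inside or just above the intervals of the long domains. By number of peaks, ASH2 was denser in long domains than outside but not densest there. It had 332 peaks per Mb in long domains (324 to 341), 257 in domains of 5 to 20 kb (246 to 268), 366 in those of up to 5 kb (345 to 389) and 245 outside (242 to 248). A peak that touched a domain by 1 bp was counted, which raises the density most in the short domains (median length 323 bp up to 5 kb).

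The ASH2 excess was one of number and not of covered length. ASH2 peaks covered 8.84% of the length of long domains and 8.58% of the length outside, a ratio of 1.03. They covered less of the shorter domains, with 6.46% in those of 5 to 20 kb and 7.05% in those of up to 5 kb. The median ASH2 peak width was 210 bp in long domains and 244 bp elsewhere. H3K4me3 and Ser2P peaks were also narrower in long domains, with medians of 682 bp against 849 bp elsewhere and 676 bp against 866 bp. The Ser5P medians lay closer together, at 659 bp against 694 bp. By arm, the ratio of long domains to outside was below 1 on all 5 arms for H3K4me3 (0.212 to 0.333), Ser5P (0.352 to 0.796), Ser2P (0.345 to 0.612) and H3K36me3 (0.0181 to 0.205). For ASH2 it was 1.66 on 2L, 1.56 on 3L, 1.40 on 2R and 1.32 on 3R but 1.01 on X.

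**Figure D2:**
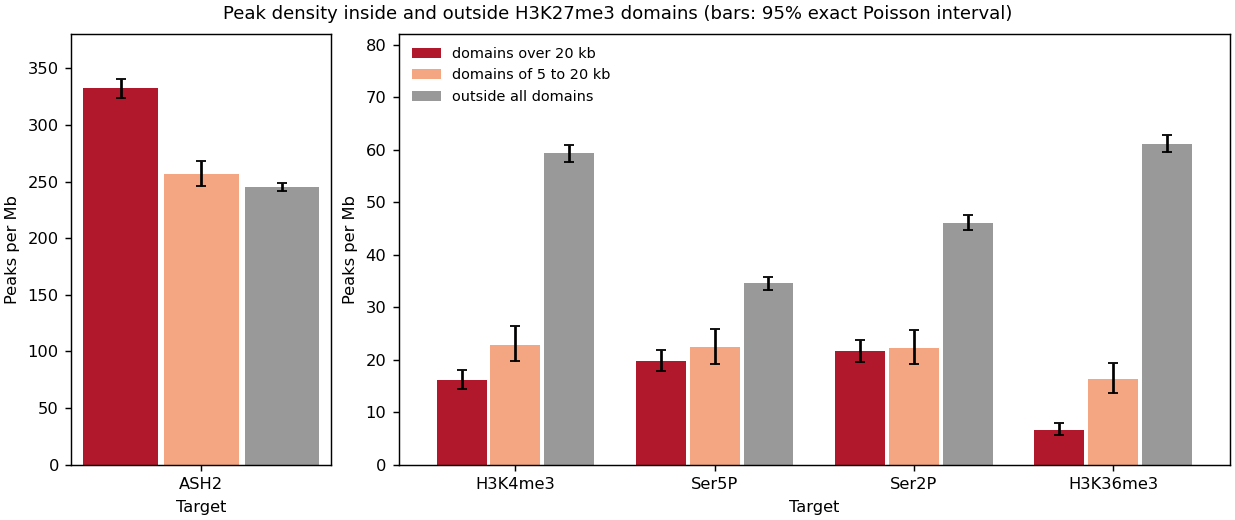
Peaks per Mb of each target (x axis) in domains over 20 kb, in domains of 5 to 20 kb and outside all H3K27me3 domains, with exact 95% Poisson intervals as error bars and ASH2 on its own scale. The 4 active marks are sparser in long domains than outside, most of all H3K36me3 (6.69 against 61.1 per Mb), while ASH2 is denser (332 against 245 per Mb).

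Counted by domain, 267 of the 380 long domains held at least 1 active peak. A Ser5P peak was present in 193 of 380 (50.8%, 45.6 to 55.9), against 11.8% of all H3K27me3 domains. Ser2P was present in 184 (48.4%, 43.3 to 53.6; all domains 12.1%) and H3K4me3 in 169 (44.5%, 39.4 to 49.6; all domains 11.2%). H3K36me3 was present in 73 (19.2%, 15.4 to 23.5; all domains 7.53%) and ASH2 in 374 (98.4%, 96.6 to 99.4; all domains 46.3%). A longer interval meets more peaks, so the shares of long and short domains are not on a common scale, unlike the densities above. With only the wider 50% of each of the other lists the shares were 29.2% for Ser5P, 25.8% for Ser2P and 22.9% for H3K4me3. The holders usually had few: of the 193 domains with Ser5P, 105 had 1 peak and 13 had 5 or more, and the most was 10. For H3K4me3, 90 of 169 had 1 peak and the most was 7.

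Among the long domains themselves the shares with Ser5P or H3K4me3 were higher in longer domains, and their densities were not. With the members split by length into 4 classes of 95, Ser5P was present in 34.7% of the shortest class (20071 to 26557 bp) and in 48.4, 51.6 and 68.4% of the next ones, the last starting at 60173 bp. Its densities over the same classes were 18.7, 23.7, 23.7 and 16.9 peaks per Mb. For H3K4me3 the shares were 29.5, 36.8, 42.1 and 69.5% and the densities 17.3, 20.3, 16.2 and 14.6 per Mb. ASH2 became denser with each class, at 269, 306, 315 and 364 peaks per Mb. H3K36me3 was present in 16 to 20 domains of every class, at 9.56 per Mb in the shortest and 4.22 in the longest.

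With 4 classes by H3K27me3 cover in place of length, the least covered class (5.85 to 18.3%) was the poorest in ASH2, Ser5P and Ser2P over all arms. Its Ser5P density was 10.9 per Mb, and those of the following classes were 18.6, 27.9 and 17.8 per Mb. Ser2P densities increased through the classes, at 14.9, 20.6, 21.7 and 25.6 per Mb. The sparse class consisted mostly of domains on 3R and X (77 of 95), and the dense one did not (36 of 95). On 2L, 2R and 3L alone the Ser2P densities over 4 classes of cover were 24.2, 21.2, 22.7 and 39.6 per Mb and those of Ser5P 21.8, 28.9, 22.7 and 26.5 per Mb, so the order of the lower classes was not kept there. On 3R and X alone they were 13.2, 12.1, 20.1 and 17.2 per Mb for Ser2P and 7.22, 11.6, 20.8 and 15.4 per Mb for Ser5P, with the maximum in the class below the densest. ASH2 had 394, 425, 376 and 325 per Mb on 2L, 2R and 3L, where the most covered class was the poorest, and 192, 211, 358 and 326 per Mb on 3R and X. The least covered class was thus the poorest in Ser5P on both sets of arms, though not in Ser2P on either. Beyond that, the order of the classes differed between the sets for each of these targets. Domains with no active peak were most frequent in the least covered class of both sets. Their shares were 38.6, 16.3, 18.6 and 4.65% on 2L, 2R and 3L and 59.6, 44.2, 23.1 and 25.5% on 3R and X.

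The polymerase forms and H3K4me3 tended to occur in the same domains. All of H3K4me3, Ser5P and Ser2P were present in 102 domains (26.8%), against 4.74% of all H3K27me3 domains, and 119 domains (31.3%) had none of them. Between these extremes, 38 had both polymerase forms without H3K4me3, 31 had Ser5P alone and 23 Ser2P alone. A further 24 had H3K4me3 alone, 22 had it with Ser5P and 21 with Ser2P. Domains with all of these marks had a median length of 58145 bp, those with none 29783 bp. For the other combinations no share over all H3K27me3 domains was computed. Their counts describe the long domains only and do not set them apart from shorter ones.

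Of the 193 domains with Ser5P, 140 also held Ser2P (72.5%, 65.7 to 78.7), against 23.5% of the domains without Ser5P, an odds ratio of 8.58. Among all H3K27me3 domains with Ser5P 59.5% held Ser2P, and both forms together occurred in 7.03% of all domains. H3K4me3 with Ser2P had an odds ratio of 6.58 and H3K4me3 with Ser5P one of 5.67. Combined within the 4 classes of length (Mantel-Haenszel), these odds ratios were 7.53, 5.48 and 4.92. The arms were pooled in all of these ratios, although their shares differed. Ser5P was present in 71.4% of long domains on 2R and 33.3% on X, and Ser2P in 66.1% and 30.3%. Odds ratios within arms were not computed. Of the 73 domains with H3K36me3, 63 held H3K4me3 (86.3%, 76.2 to 93.2; odds ratio 11.9), 47 held Ser2P (64.4%, 52.3 to 75.3; odds ratio 2.24) and 41 Ser5P (56.2%, 44.1 to 67.8; odds ratio 1.31). Among domains of 5 to 20 kb with H3K36me3 72.3% held H3K4me3, 53.0% Ser5P and 51.8% Ser2P; among all H3K27me3 domains with it 68.9% held H3K4me3, 40.9% Ser5P and 51.7% Ser2P. No p is attached to these ratios, since neighbouring domains of 1 library are not independent.

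Where such peaks lay closer together than a domain, they were compared as islands, that is, as H3K4me3, Ser5P and Ser2P peaks joined over gaps of up to 500 bp. The long domains contained 674 islands in 261 domains, with a median island width of 733 bp, against 5847 islands outside all domains with a median of 1044 bp. Of the domains, 95 had 1 island, 73 had 2, 69 had 3 to 5 and 24 had 6 or more, up to 11. The 38 domains richest in islands, 10% of the members, held 37.5% of them. Neighbouring islands of a domain were a median of 5732 bp apart.

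Islands inside the long domains carried polymerase without H3K4me3 more often than islands outside all domains, and so did islands in domains of 5 to 20 kb. Ser5P alone made up 134 of the 674 islands (19.9%, 16.9 to 23.1), 17.2% in domains of 5 to 20 kb (13.2 to 21.9) and 9.05% outside (8.32 to 9.81). On all 5 arms it was higher in long domains than outside (15.5 to 26.2% against 8.09 to 10.1%). Ser5P with Ser2P and without H3K4me3 made up 11.7% (9.39 to 14.4), the same 11.7% in domains of 5 to 20 kb (8.32 to 15.8) and 5.01% outside (4.47 to 5.60). Ser2P alone made up 29.1% (25.7 to 32.7), 21.8% in domains of 5 to 20 kb (17.3 to 26.8) and 23.3% outside (22.2 to 24.4). Conversely, H3K4me3 was part of 39.3% of islands in long domains (35.6 to 43.1), 49.4% in domains of 5 to 20 kb (43.6 to 55.1) and 62.6% outside (61.4 to 63.9). Of the islands with Ser5P, 140 of 353 included H3K4me3 inside long domains (39.7%), against 67.4% of those outside. Of those with H3K4me3, 52.8% included Ser5P (46.6 to 59.0), against 46.4% outside (44.7 to 48.0).

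**Figure D3:**
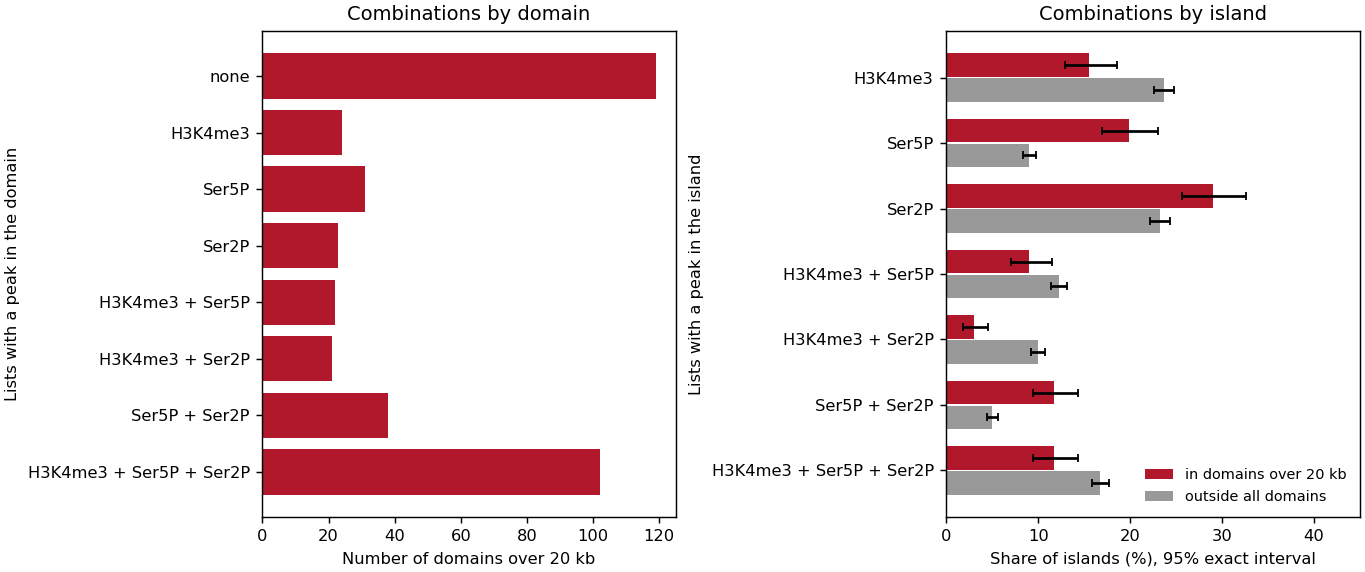
Left, the number of domains over 20 kb by which of H3K4me3, Ser5P and Ser2P have a peak in the domain: 119 have none and 102 have all. Right, the share of islands (%, with exact 95% intervals) by the lists they contain, in domains over 20 kb (674 islands) and outside all domains (5847 islands); Ser5P alone is 19.9% against 9.05%, and all of the lists together 11.7% against 16.8%.

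H3K36me3 rarely accompanied elongating polymerase inside the long domains. Of the islands with Ser2P, 43 of 374 overlapped H3K36me3 (11.5%, 8.45 to 15.2), 25% in domains of 5 to 20 kb and 58.9% outside (57.2 to 60.6). For Ser2P alone the shares were 3.57% inside and 49.3% outside. None of the 134 islands of Ser5P alone and none of the 79 of Ser5P with Ser2P overlapped H3K36me3 in long domains. Outside, 1.13% and 19.8% of such islands did. By arm the share of all islands with H3K36me3 was 2.68 to 6% on 2L, 2R and 3L but 18.2% on X and 23.0% on 3R, each below the 43.5 to 48.1% outside domains. As a share of long domains, H3K36me3 was present in 30.6% on 3R, 22.2% on X, 13.0% on 3L, 10.4% on 2L and 7.14% on 2R. When the arms were limited to equal numbers of H3K27me3 entries, these shares were 19.0, 9.62, 14.1, 10.4 and 7.14% in the same order. X was then below 3L and 2L.

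ASH2 overlapped most islands in either place. It was present at 85.3% of the islands with H3K4me3 in long domains (80.4 to 89.3) against 91.0% outside (90.0 to 91.9), and at 84.1% of those with Ser5P (79.9 to 87.8) against 92.1% (91.0 to 93.1). Islands of Ser2P alone had ASH2 at 24.5% (18.6 to 31.1) against 16.7% outside (14.7 to 18.8).

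Many active peaks inside the domains overlapped H3K27me3 peaks. Of the 407 Ser2P peaks in long domains, 310 overlapped an H3K27me3 peak (76.2%, 71.7 to 80.2), as did 212 of 305 H3K4me3 peaks (69.5%, 64.0 to 74.6), 236 of 372 Ser5P peaks (63.4%, 58.3 to 68.3) and 74 of 126 H3K36me3 peaks (58.7%, 49.6 to 67.4). By length, 58.3% of the Ser2P sequence, 49.7% of the H3K4me3 sequence, 49.0% of the Ser5P sequence and 19.7% of the H3K36me3 sequence lay under H3K27me3 peaks. Of the 6259 ASH2 peaks, 4213 overlapped an H3K27me3 peak (67.3%, 66.1 to 68.5), and 54.9% of the ASH2 sequence lay under such peaks. H3K27me3 covered 43.7% of the domains as a whole.

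Placed by their midpoints, the marks separated between H3K27me3 peaks and the gaps of the domain. H3K27me3 peaks made up 43.7% of the length, gaps under 1 kb 19.2%, gaps of 1 to 2 kb 13.4% and gaps of 2 to 5 kb 23.7%. Ser2P was densest under H3K27me3 peaks, with 30.1 midpoints per Mb (26.5 to 34.1), and had 10.2, 13.5 and 18.3 per Mb in the small, middle and large gaps. The same held for ASH2, with 439 per Mb under H3K27me3 peaks (425 to 454) and 191, 256 and 287 in these gaps. Ser5P was densest in the large gaps, at 25.9 per Mb (21.4 to 31.1), against 19.7 under H3K27me3 peaks (16.8 to 23.0) and 9.40 in small gaps. H3K4me3 had 21.0 per Mb under H3K27me3 peaks (18.0 to 24.4) and 21.9 in the large gaps (17.8 to 26.7), with 1.94 in small gaps. H3K36me3 lay mostly in the large gaps, with 74 of 114 midpoints (64.9%) and 16.6 per Mb, against 3.40 per Mb under H3K27me3 peaks. A gap is defined by the absence of H3K27me3 peaks, so cover and gaps are parts of the same list that chose the domains.

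Around the midpoints H3K27me3 cover dipped at 500 to 1000 bp for all of the targets and was back near the level of the whole domain farther out. Around Ser5P midpoints cover was 38.8% within 500 bp, 37.0% at 500 to 1000 bp and 45.5% at 1000 to 1500 bp, where the domains that held the peaks averaged 45.5%. Around H3K4me3 it was 46.5% within 500 bp, 35.4% at 500 to 1000 bp and 43.3% at 1000 to 1500 bp, with a domain average of 46.9%. Ser2P midpoints had 52.5% within 500 bp and 43.6% at 500 to 1000 bp, around an average of 48.1%. For ASH2 the dip was slight, from 46.0% within 500 bp to 42.8%, around 45%. H3K36me3 stood apart with 18.9% within 500 bp and 12.7% at 500 to 1000 bp, around 34.6%. The dip at H3K4me3 was to 0.580 of the domain average on 3R and X and to 0.903 on 2L, 2R and 3L, and within 500 bp cover was above that average on 2L, 2R and 3L (1.14) and below it on 3R and X (0.823).

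**Figure D4:**
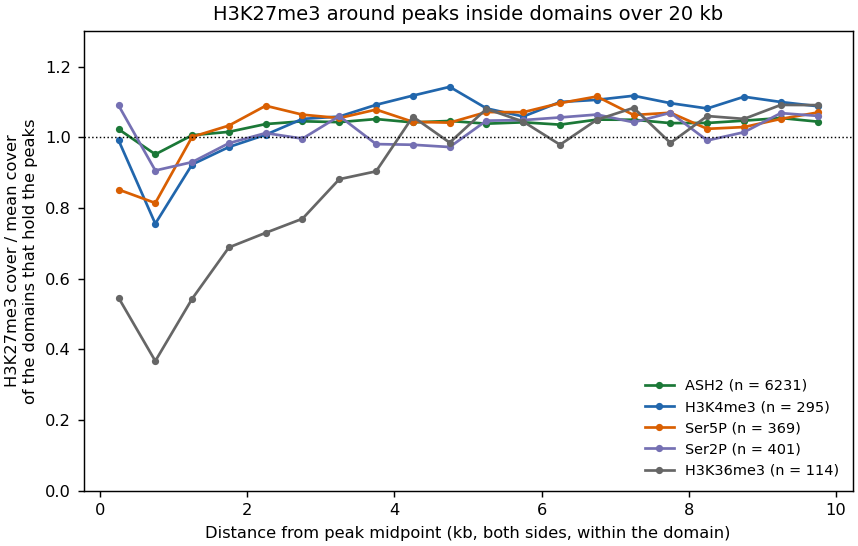
H3K27me3 cover around peak midpoints inside domains over 20 kb, divided by the mean cover of the domains that hold the peaks (y axis), against the distance from the midpoint on both sides in steps of 500 bp up to 10 kb (x axis). H3K4me3, Ser5P, Ser2P and ASH2 dip at 500 to 1000 bp and return to about 1, and H3K36me3 stays lower over the first kilobases.

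Along the domain, polymerase and ASH2 midpoints were spread nearly evenly, whereas H3K36me3 midpoints lay more often near the ends. H3K4me3 had a smaller excess there, and most of its midpoints lay farther inside. With each domain divided into 10 equal parts and these paired from the edges inward, an even spread gives equal counts in the 5 pairs. The outermost pair held 18.2% of the 369 Ser5P midpoints, 18.3% of the 6231 ASH2 midpoints and 21.9% of the 401 Ser2P midpoints. It held 27.5% of the 295 H3K4me3 midpoints and 43.0% of the 114 H3K36me3 midpoints. The innermost pair held 24.4% of Ser5P, 21.4% of H3K4me3 and 11.4% of H3K36me3 midpoints. For H3K4me3 the pairs between these held 15.6 to 18.0% each.

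A sizeable minority of the long domains had no active peak at all. In 113 of 380 (29.7%, 25.2 to 34.6) no H3K4me3, Ser5P, Ser2P or H3K36me3 peak was listed, against 78.6% of all H3K27me3 domains, most of which are short. Their median length was 29571 bp, against 40476 bp for the 267 domains with an active peak, and their median H3K27me3 cover was 20.4% against 38.2%. They were 46.3% of the shortest class of members, then 30.5, 27.4 and 14.7% of the longer classes. By arm they were 43.4% on X, 33.3% on 3R, 24.6% on 3L, 16.7% on 2L and 16.1% on 2R. With equal numbers of H3K27me3 entries per Mb the shares were 40.4% on X and 31.7% on 3R, against 25, 18.8 and 16.1% on 3L, 2L and 2R.

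ASH2 was sparser in the domains without active peaks, at 233 peaks per Mb against 362 in those with one. The difference was present in every class of length: 221 against 311 per Mb in the shortest, 277 against 319 and 261 against 336 in the middle classes, and 182 against 391 in the longest. These classes mix the arms, and 79 of the 113 domains lay on 3R or X, against 128 of the 267 with an active peak. Long domains had 246 ASH2 peaks per Mb on X and 330 on 3R, against 340 to 397 on the other arms. Whether the difference is present within arms or at equal cover was not tested. ASH2 was listed in 109 of these 113 domains, and the remaining 4 had no peak of any other list. Among the 2985 H3K27me3 domains of any length without an active peak, 1882 had no peak of any other list. Those 1882 are 49.5% of all H3K27me3 domains. A longer interval meets more ASH2 peaks, so the counts for long and for all domains are not on a common scale. The 4 long domains without any other peak measured 20900 to 27381 bp, had a median cover of 10.8% and lay on 3R or X.

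The longest domain without an active peak, 2L from 8743277 to 8895553 (152277 bp), had 111 H3K27me3 peaks and a cover of 61.2%, with 15 ASH2 peaks on 1.84% of the sequence. Next, 3R from 5676753 to 5798574 (121822 bp) had a cover of 36.1% and 24 ASH2 peaks. X from 17200032 to 17311833 (111802 bp) had a cover of 63.9% and 22 ASH2 peaks. The others of the 5 longest were 3R from 11332535 to 11426282, with a cover of 48.0% and 21 ASH2 peaks, and 2R from 16768299 to 16861038, with 77.5% and 9. Of these 5 domains, that on 3R from 5676753 had a cover near the 32.6% median of all members, and the others lay above it.

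Each of the 5 longest members held 3 or 4 active peaks, apart from the second, which held 9. The longest, 3L from 18238439 to 18417622 (179184 bp), had 100 H3K27me3 peaks over 16.7% of its length, 69 ASH2 peaks, 1 H3K4me3, 1 Ser5P and 1 Ser2P peak. Its H3K4me3 and Ser5P peaks overlapped, at 152.5 to 153.4 kb from its left edge, and its Ser2P peak lay apart at 48.3 to 48.9 kb. In the second, 3R from 10157119 to 10333500 (176382 bp, cover 38.2%), were 79 ASH2, 2 H3K4me3, 2 Ser5P and 5 Ser2P peaks. Its H3K4me3 peaks and 1 Ser5P peak clustered at 149.0 to 150.6 kb and the Ser2P peaks lay elsewhere, from 6.20 to 90.4 kb. The others were 2L from 15272952 to 15445631 with a cover of 50.8% and 108 ASH2 peaks, the most of any member, 3L from 20535321 to 20706930 with 62.7% and 98, and X from 7378591 to 7547763 with 51.0% and 51. Each of them had 1 H3K4me3 and 1 Ser2P peak, with 1, 2 and 1 Ser5P peaks in that order. No H3K36me3 peak was listed in these 5 domains.

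The 5 members with the most H3K4me3, Ser5P and Ser2P peaks held 92 of the 1084 such peaks (8.49%), and 3 domains tied for the fifth place with 16, of which the one first by arm and start is named. 3R from 21821787 to 21866584 (44798 bp, cover 46.6%) had the most of these, with 2 H3K4me3, 10 Ser5P and 8 Ser2P peaks and 23 ASH2 peaks, and Ser5P covered 25.3% and Ser2P 19.4% of its length. No H3K36me3 peak was listed there, and with H3K36me3 counted 3 other domains had 21 active peaks against its 20. Its H3K4me3, Ser5P and Ser2P peaks lay within 26.8 kb of its left edge, apart from 1 Ser5P and 1 Ser2P peak at 40.7 to 41.8 kb. In 2L from 490915 to 558528 (67614 bp, cover 77.4%) there were 4 H3K4me3, 7 Ser5P and 8 Ser2P peaks, 24 ASH2 peaks and 2 H3K36me3 peaks. H3K4me3, Ser5P, Ser2P and both H3K36me3 peaks met there at about 50.6 to 53.8 kb from its left edge, in the largest gap of its H3K27me3 peaks (4783 bp). The others were 2R from 8830850 to 8935816 with 4 H3K4me3, 9 Ser5P and 6 Ser2P peaks, 3L from 19132404 to 19191657 with 3, 10 and 5, and 2L from 12567091 to 12687925 with 4, 6 and 6. Their covers were 55.9, 15.7 and 58.5%, and none of these held H3K36me3.

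**Figure D5:**
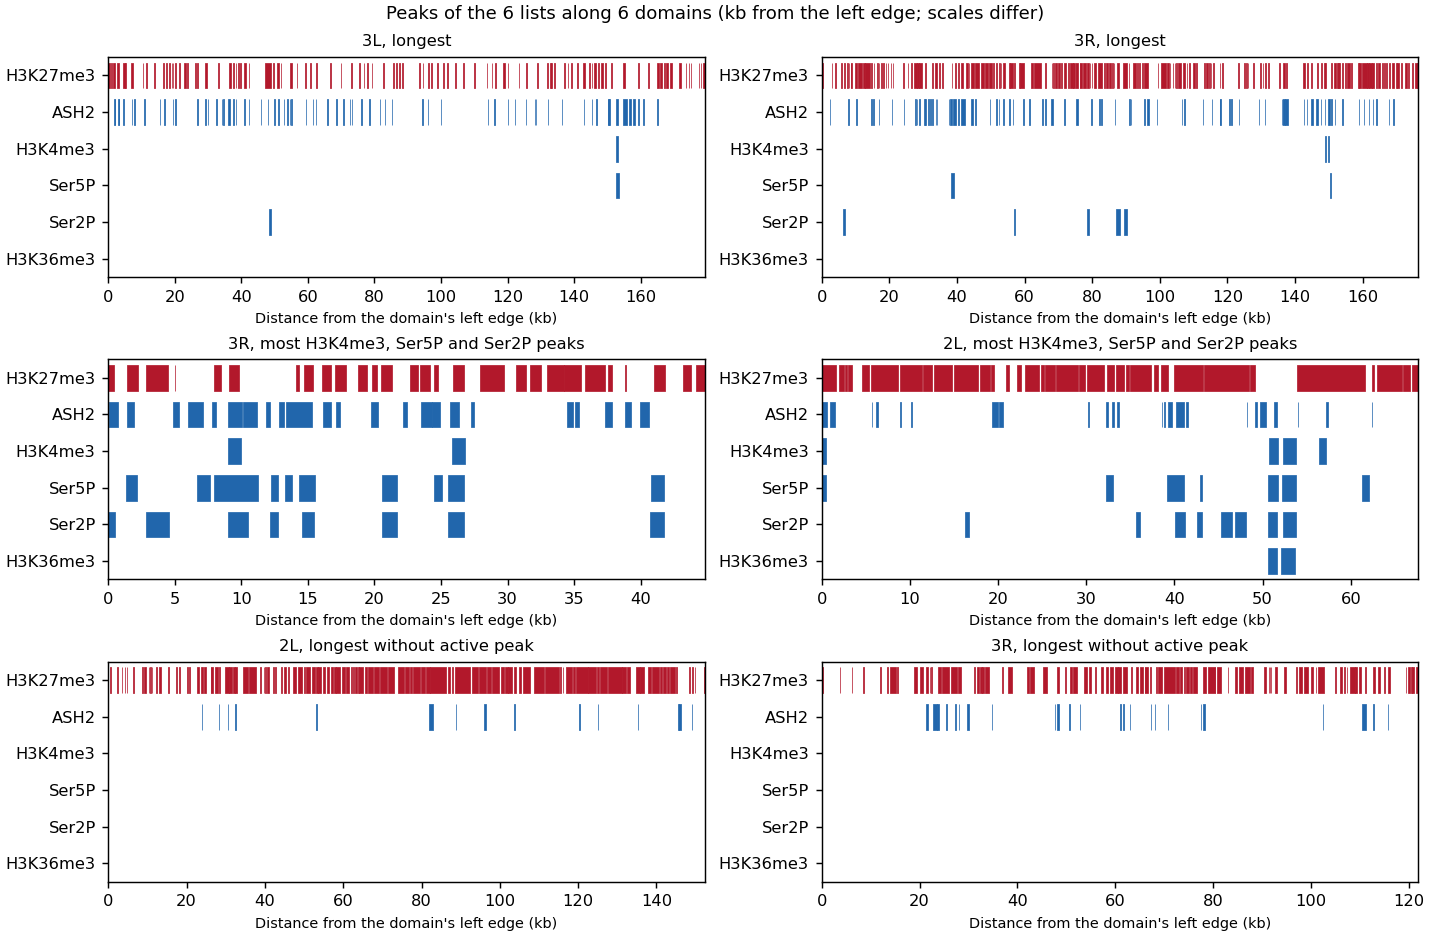
Peaks of the 6 lists along 6 domains, drawn to scale from the left edge (kb): the 2 longest members (top), the 2 with the most H3K4me3, Ser5P and Ser2P peaks (middle) and the 2 longest with no active peak (bottom). H3K27me3 is in red and the other lists in blue, and the panels differ in length (176382 and 44798 bp, for example).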

How the data were processed

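The authors deposited 1 list of peak positions per library, with 3 columns (chromosome, start, end) per the deposited readme and no score, on build dm3 as the submitters' processing notes name it. How reads were aligned and peaks called, and whether the input served as control, is not given in the sources used here, and no genome of this build was used, so no sequence is shown. Starts were raised by 1 bp for printing. An entry with equal start and end counted as 1 bp. Domains were built and counted in Python 3.11.15 with pandas 2.3.3 and scipy 1.17.1, and this was tested on simulated data. A peak lay in a domain if it overlapped it by at least 1 bp. Densities outside divide the peaks that meet no domain by the span not in domains, an arm ending at its last peak. The domains and comparisons were chosen with earlier results of these data known. Named positions are the 5 longest members, the 5 with most H3K4me3, Ser5P and Ser2P peaks (ties by arm and start), the 5 longest without an active peak, the 3 of highest and of lowest cover, and those beside the length limits. Since no replicates exist, no tests were run.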

Additional observations from a re-analysis of the deposited data

How the results depend on the processing

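Alternatives changed 1 choice at a time, and 45 of 79 recomputed values stayed within the interval of the reported value, or within 1.5 times it for the count. The number of long domains was 138 with a joining gap of 1000 bp and 173 on 2L, 2R and 3L alone. Median H3K27me3 cover was 77.6% with a gap of 1000 bp, 16.0% with 10000 bp, 39.7% for domains over 30000 bp, 40.7% with H3K27me3 entries of at least 100 bp, 42.6% on those 3 arms and 43.1% with equal numbers of the widest entries per Mb, a setting chosen after seeing the data. The share of domains with ASH2 was 100% with a gap of 1000 bp, over 30000 bp and on the 3 arms, and 91.3% with the wider 50% of each other list. That wider 50% gave 22.9% for H3K4me3, 29.2% for Ser5P, 25.8% for Ser2P, 55.8% for no active peak and 61.3% for Ser2P among domains with Ser5P. With a gap of 1000 bp Ser5P was present in 42.8% and no active peak in 35.5%. With 10000 bp H3K4me3 was present in 55.7%, Ser5P in 59.2% and no active peak in 23.4%, and the Ser5P density ratio was 0.641. Over 30000 bp the shares were 52.2% for H3K4me3, 58.4% for Ser5P, 55.7% for Ser2P and 21.6% for no active peak. On the 3 arms they were 64.2% for Ser5P, 63.0% for Ser2P and 19.7% for no active peak, with a density ratio of 0.706. Equal numbers of entries gave 56.9% for Ser5P and a ratio of 0.647. Counting ASH2 as active left 1.05% of domains without an active peak. The Ser5P ratio stayed below 1 under every alternative run. No paired analysis was possible because each target had 1 library. How far a domain extends, how densely it is covered and how many of its places lack a peak depend on the joining gap and on the peak caller's threshold, and the lists hold no reads to judge depth.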
